A study of Mus musculus with 6 samples.

Results

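The Ifitm and Ifi44 genes were followed in CD4+ T cells of wild-type mice (WT) and of mice lacking cystathionine beta-synthase (CBS-KO), the enzyme that joins homocysteine to serine and also makes hydrogen sulfide. The members were 7 genes chosen by name, Ifitm1, Ifitm2, Ifitm3, Ifitm6, Ifitm10, Ifi44 and Ifi44l. A probe set of the Affymetrix array counted as a member if the platform's gene table gave it exactly 1 of these symbols. This found 9 probe sets for 6 of the 7 genes, out of 34760 probe sets on the array, and no probe set carried the name Ifi44 alone. The genes had been proposed with the difference between WT and CBS-KO arrays already known, so their values in that contrast are given here as a description and carry no p-value. Both groups were C57BL/6 mice of 6 weeks of age with 3 arrays each, labelled as biological replicates. The labels do not say how Cbs was inactivated, how the cells were purified or whether the replicates were separate animals. Values for single arrays are given in the order of the replicate numbers, 1 to 3.

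IFITM proteins are small membrane proteins that block the fusion of enveloped viruses with the membranes of the cell. Ifitm1 acts mainly at the cell surface, and Ifitm2 and Ifitm3 act in endosomes and lysosomes. Type I interferon binds its receptor, the kinases Jak1 and Tyk2 are activated, and a complex that holds Irf9 switches on genes that carry an interferon-stimulated response element (ISRE). Ifitm3 is among the classical targets, while several Ifitm genes are also expressed without interferon in myeloid and other cells. Ifi44 and Ifi44l encode related interferon-induced cytoplasmic proteins, and Ifi44l has been described as limiting the interferon response.

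The start regions of the 5 member genes that were higher in CBS-KO cells are shown because these genes were high in the same arrays. Interferon-response motifs were looked for because Ifitm3 and Ifi44l are known interferon targets. Whether interferon acted in these cells was not tested. Each line holds the 100 bases before the annotated start from RefSeq (GRCm38.p6), 5′ to 3′ on the gene's strand, and capitals mark matches to an interferon-response motif.
Ifitm1 (chr7:140967976-140968075, plus strand): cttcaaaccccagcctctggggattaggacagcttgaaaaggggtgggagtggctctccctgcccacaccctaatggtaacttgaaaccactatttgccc
Ifitm2 (chr7:140955962-140956061, minus strand): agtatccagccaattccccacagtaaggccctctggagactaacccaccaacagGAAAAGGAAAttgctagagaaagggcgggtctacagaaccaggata
Ifitm3 (chr7:141010745-141010844, minus strand): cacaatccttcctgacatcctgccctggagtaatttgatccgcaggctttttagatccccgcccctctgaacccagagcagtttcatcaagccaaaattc
Ifitm6 (chr7:141016893-141016992, minus strand): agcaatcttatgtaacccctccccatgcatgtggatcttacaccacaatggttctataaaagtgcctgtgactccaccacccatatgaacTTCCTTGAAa
Ifi44l (chr3:151762892-151762991, minus strand): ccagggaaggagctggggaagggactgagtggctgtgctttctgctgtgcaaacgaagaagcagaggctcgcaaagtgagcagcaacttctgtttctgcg

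Motifs were searched on both strands of the RefSeq windows from 250 bases before to 50 bases after the start, which all 7 member genes had. The ISRE core, GAAA followed by any 2 bases and a further GAAA, occurred in 3.44% of 32851 mouse windows. Ifitm2 held 1 match, whose first base lay at -46 from the start. Ifitm3 held 2 matches just inside its transcript, beginning at positions 3 and 20, and this stretch is shown with the ISRE cores in capitals.
Ifitm3 (chr7:141010716-141010742, minus strand): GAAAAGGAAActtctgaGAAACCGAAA
The gamma-activated site TTCNNNGAA occurred in 8.30% of windows. It matched once in Ifitm6, from -10, and once in Ifitm3, from position 14, where its letters overlap the second ISRE core. The PU.1 motif GAGGAAGT, found in 3.20% of windows, matched no member window. Ifitm1, Ifi44l, Ifi44 and the 3 windows of Ifitm10 held none of the 3 motifs, which says only that these letters are not in these windows. Ifitm2 and Ifitm3 shared a run of 13 bases, caggaaaaggaaa, starting at -49 and -1. For the other pairs among Ifitm1, Ifitm2, Ifitm3, Ifitm6, Ifi44 and Ifi44l the longest shared run was 8 to 10 bases.

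The arrays did not differ by genotype alone. Xist, the transcript of the inactive X chromosome, lay between 12.23 and 12.68 in the WT arrays and CBS-KO 3 and at 6.02 and 6.18 in CBS-KO 1 and 2, as log2(intensity + 16). Of the Y-linked genes, Eif2s3y lay at 9.41 and 9.19 in CBS-KO 1 and 2 and at most at 4.90 elsewhere, so sex was partly confounded with genotype. The probe set of the targeted gene, Cbs, lay at 7.37, 7.48 and 7.19 in the WT arrays and at 7.25, 7.63 and 7.35 in the CBS-KO arrays, so it did not separate the groups. The part of the transcript that it reads is unknown, so its level is no check of the genotype. Of 13 genes listed for CD4+ T cells, most of which T cells in general express, the 11 with a probe set lay above the filter level of 6.99. All of these 11 had negative differences, with a median of -0.74, and 4 passed as lower. That count was 0 on leaving out CBS-KO 1 or any WT array, and all 11 passed without CBS-KO 2. With sex as a model term the median was -0.98, an estimate that rests on CBS-KO 3 alone. The list mean was lowest in that array, at -1.05 relative to the WT mean, against -0.66 and -0.35 in CBS-KO 1 and 2. The summed intensity of the 11 genes ran from 62070 to 68385 in WT and from 33432 to 53268 in CBS-KO arrays.

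Markers of neutrophils, monocytes and macrophages, and erythroid cells were higher in CBS-KO arrays, in the same direction as the 5 Ifitm and Ifi44l genes that were called. Of 14 neutrophil genes 13 passed as higher, with a summed intensity of 1642 to 3279 in WT and 29315 to 37762 in CBS-KO arrays. Of the 11 tested monocyte and macrophage genes among 15 listed, 10 passed, with sums of 3044 to 5156 and 16890 to 22386 over the 14 that had a probe set. All 7 erythroid genes measured of the 14 listed passed, with sums of 1605 to 3155 and 14127 to 32478. Of the NK cell genes 4 of 7 passed as higher (list median 1.38), of the dendritic cell genes 3 of 9 (0.98) and of the B cell genes 1 of 9 (0.02). Of 6 platelet genes 1 passed as higher and 1 as lower, and 0 of 4 CD8 T cell genes passed. The B cell sum was 26171 in CBS-KO 2 and 14023 and 9438 in CBS-KO 1 and 3. No intensity was 0. The defining monocyte and macrophage genes Cd163, Ms4a7 and Fcgr1 and the NK cell gene Klre1 lay below the filter level in their mean over the 6 arrays. Of the 14 neutrophil markers 5 (S100a8, S100a9, Mmp8, Cxcr2 and Retnlg), of the monocyte markers tested Cd14 and of the erythroid markers Epb42 had a WT mean below that level and were tested through their CBS-KO level. The same held for the NK cell gene Klra8 and the dendritic cell gene Clec9a. The counts fell when some single arrays were left out. Without WT 2, 5 neutrophil, 0 monocyte and 2 erythroid genes passed, without WT 1, 5, 1 and 3, and without CBS-KO 1, 6, 4 and 2. In those fits 73, 93 and 166 of all 20856 probe sets were called, against 1995 with all 6 arrays. The list medians changed less. With any 1 array left out they ran from 3.22 to 3.68 (neutrophil), 2.09 to 2.54 (monocyte) and 2.79 to 3.32 (erythroid). In all 14 neutrophil, 11 tested monocyte and 7 erythroid genes, every CBS-KO array lay above every WT array. Over single arrays left out, the NK cell count ran from 0 (without WT 1 or WT 2) to 5 and the dendritic cell count from 0 (without WT 2) to 5, and without CBS-KO 2 the B cell genes had 1 higher and 3 lower. The part of these cells in the Ifitm values was not tested, and in bulk RNA fewer cells of a type and less RNA per cell cannot be told apart.

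A linear model over 20856 probe sets above the 40th percentile of level (limma, Benjamini-Hochberg adjusted p under 0.05) called 9.57% of them, 5.09% as higher and 4.47% as lower in CBS-KO. All 9 member probe sets were tested, and 8 of them, for 5 genes, were called, all as higher. The same 8 had every CBS-KO array above every WT array, as did 15.0% of all tested probe sets, while 21.7% had every CBS-KO array below every WT array. Since the genes were proposed from this contrast, nothing is read from these counts. The median difference of the 9 probe sets was 2.22 log2 units, beside -0.05 over all tested probe sets. In the following, levels are log2(intensity + 16), and differences are CBS-KO minus WT with the standard error (SE) of the limma fit.

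**Figure D1:**
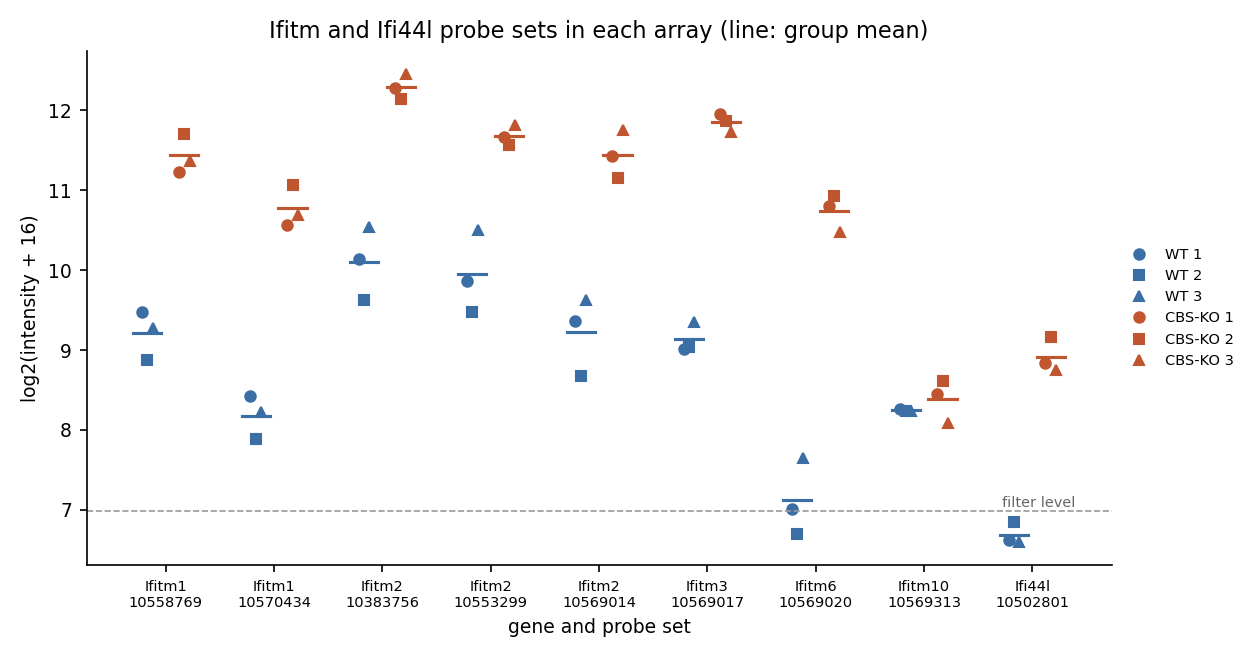
Level of each member probe set in each array, as log2(intensity + 16), with WT arrays in blue, CBS-KO arrays in orange, symbols for the array number and lines at the group means. In 8 of 9 probe sets all CBS-KO arrays lie above all WT arrays; in Ifitm10 they overlap, and the WT arrays of Ifi44l lie below the dashed filter level of 6.99.

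Among the antiviral membrane proteins, Ifitm3, which blocks virus entry from endosomes, had the narrowest spread. Its log2 levels were 9.01, 9.03 and 9.35 in the WT arrays and 11.96, 11.87 and 11.73 in the CBS-KO arrays. The groups were separated by 2.38 log2 units between the nearest arrays, while the WT arrays spanned 0.34 and the CBS-KO arrays 0.22. The WT mean was 9.13 ± 0.19 (SD, n = 3), the CBS-KO mean 11.85 ± 0.11 (SD, n = 3) and the difference 2.72 (SE 0.13, 95% confidence interval 2.40 to 3.04). On the linear scale the mean intensity was 549 ± 77.8 (SD) in WT and 3692 ± 288 (SD) in CBS-KO arrays, a ratio of 6.73.

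Ifitm1, the family member of the cell surface, was read by 2 probe sets that the gene table assigns to the same transcripts. Probe set 10558769 gave log2 levels of 9.48, 8.87 and 9.27 in the WT arrays and 11.23, 11.71 and 11.37 in the CBS-KO arrays, a difference of 2.23 (SE 0.20). Probe set 10570434 gave 8.42, 7.88 and 8.23 for WT and 10.57, 11.07 and 10.68 for CBS-KO, a difference of 2.60 (SE 0.20). In both, WT 2 was the lowest and WT 1 the highest WT array, and CBS-KO 2 the highest CBS-KO array. The groups stayed 1.75 and 2.15 apart at their nearest arrays, against WT spans of 0.61 and 0.54.

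Ifitm2, an endosomal member, was read by 3 probe sets, also assigned to the same transcripts, and their differences ran from 1.73 to 2.22. Probe set 10383756 gave 10.14, 9.63 and 10.54 in the WT arrays and 12.29, 12.14 and 12.45 in the CBS-KO arrays (difference 2.19, SE 0.23). Probe set 10569014 gave 9.36, 8.67 and 9.63 for WT and 11.43, 11.16 and 11.75 for CBS-KO (difference 2.22, SE 0.27). Both separated the groups, by 1.60 and 1.53 at the nearest arrays, and WT 2 was the low array in each. Probe set 10553299 had the smallest difference of the 8, 1.73 (SE 0.25), with 9.87, 9.48 and 10.51 for WT and 11.67, 11.56 and 11.81 for CBS-KO. Its WT arrays spanned 1.03 log2 units, almost as much as the 1.05 that separated the groups. In all 3 probe sets WT 3 was the highest WT array and CBS-KO 3 the highest CBS-KO array, which differs from Ifitm1. Because Ifitm genes are paralogues and the probe sequences were not used here, how far a probe set also reads a related copy is unknown.

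Ifitm6 had the largest difference among the member probe sets. Its log2 levels were 7.0, 6.70 and 7.65 in the WT arrays and 10.81, 10.93 and 10.47 in the CBS-KO arrays. WT 2 lay below the filter level of 6.99 and WT 1 at it, so this gene was close to the level of dim probe sets in WT cells, and all CBS-KO arrays were far above it. The means were 7.12 ± 0.49 (SD, n = 3) and 10.74 ± 0.24 (SD, n = 3), a difference of 3.62 (SE 0.26, interval 2.99 to 4.25). It ranked 23rd among the differences of the 20856 tested probe sets, ordered from the most positive. The mean intensity was 128 ± 50.6 (SD) in WT and 1706 ± 275 (SD) in CBS-KO arrays.

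Ifi44l was below the filter level in every WT array and passed the filter through its CBS-KO level. It gave 6.62, 6.84 and 6.60 in the WT arrays and 8.83, 9.16 and 8.75 in the CBS-KO arrays. All CBS-KO arrays lay above all WT arrays, with 1.91 log2 units between the nearest. The difference was 2.22 (SE 0.15, interval 1.87 to 2.57). Its size depends on the dim end of the scale: it was 2.41 with an offset of 1 in place of 16 and 1.81 with an offset of 64.

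Ifitm10, a more distant relative with no established antiviral role, did not follow the others. It gave 8.26, 8.24 and 8.24 in the WT arrays and 8.45, 8.61 and 8.09 in the CBS-KO arrays. CBS-KO 1 and 2 lay above the WT arrays and CBS-KO 3 below them. The difference was 0.14 (SE 0.16), with an interval of -0.24 to 0.52. Outside the list, Ifitm5, the bone-restricted member of the family, differed by 0.09 (SE 0.12, limma adjusted p = 0.632) and Ifitm7 by 0.09 (SE 0.15, adjusted p = 0.714), neither past the threshold.

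The 5 higher genes did not share an order of arrays within a group. WT 2 was the lowest WT array in 6 of the 8 probe sets that were called, but it was the highest in Ifi44l. Among CBS-KO arrays, CBS-KO 2 was the highest in 4 (both of Ifitm1, Ifitm6 and Ifi44l), CBS-KO 3 in 3 (all of Ifitm2) and CBS-KO 1 in 1 (Ifitm3). The marker lists also differed between arrays of a group. Over the WT arrays the neutrophil mean lay at -0.12, -0.25 and 0.38 relative to the WT mean, the monocyte mean at -0.23, -0.16 and 0.39 and the erythroid mean at 0.09, -0.41 and 0.32. Ifitm6 lay at -0.11, -0.42 and 0.53, Ifitm3 at -0.12, -0.10 and 0.22 and Ifitm2 probe set 10383756 at 0.04, -0.47 and 0.44. In these WT 3 was the highest array, as in the 3 lists. WT 3 was also the highest WT array in the B cell, NK cell, dendritic cell and platelet lists, so this order was not particular to the 3. It was the lowest in the CD8 and CD4 T cell lists. Ifitm1 probe set 10570434 (0.24, -0.29 and 0.05) was highest in WT 1 and Ifi44l (-0.07, 0.15 and -0.09) in WT 2. Over the CBS-KO arrays the neutrophil mean was 3.46, 3.48 and 3.0, the monocyte mean 1.52, 2.08 and 1.67, and the erythroid mean 3.47, 2.55 and 3.80. Ifitm6 stood at 3.69, 3.82 and 3.35 in these arrays, Ifitm2 probe set 10383756 at 2.18, 2.04 and 2.35, Ifitm3 at 2.82, 2.74 and 2.60, Ifitm1 probe set 10570434 at 2.39, 2.89 and 2.51 and Ifi44l at 2.14, 2.47 and 2.06. With 3 arrays per group these orders are described only, and the part of the marker lists in them was not tested.

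**Figure D2:**
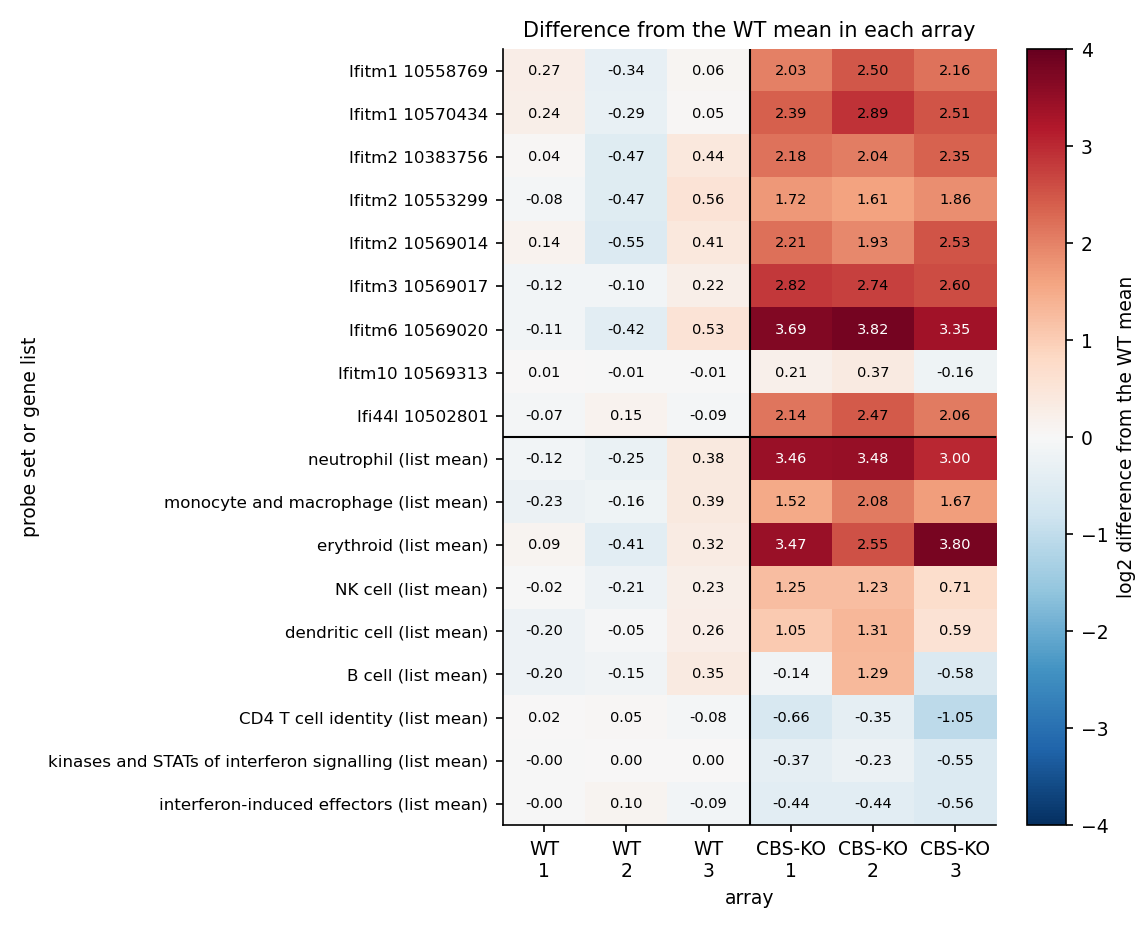
Difference from the WT mean in each array, in log2 units, for the 9 member probe sets (above the line) and for the means of marker and pathway lists (below it); red is higher and blue lower. The CBS-KO columns are red for the 8 called member probe sets and for the neutrophil, monocyte, erythroid, NK cell and dendritic cell lists. They are blue for the CD4 T cell, kinase and STAT, and interferon effector lists, and mixed for Ifitm10 and the B cell list.

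The female CBS-KO array alone showed the same directions for the 5 higher genes. Relative to the WT mean, CBS-KO 3 stood at 2.16 and 2.51 in Ifitm1, at 2.35, 1.86 and 2.53 in Ifitm2, at 2.60 in Ifitm3, at 3.35 in Ifitm6 and at 2.06 in Ifi44l. These are also the differences with sex as a model term, a fit in which the estimate rests on that array and in which 8 of 9 member probe sets were called. Calls were lost only when single arrays were left out. Without WT 1 the 3 Ifitm2 probe sets were not called, without WT 2 probe set 10553299, and without CBS-KO 1 probe sets 10553299 and 10569014. In those fits 0.446%, 0.350% and 0.796% of all probe sets were called, and 5, 7 and 6 of the 9 member probe sets. Ifitm1, Ifitm3, Ifitm6 and Ifi44l were called under every alternative that tested them. Ifi44l was not tested with the filter at the 60th percentile. Since the members were proposed from this contrast, their calls describe the fits only and add no support for a difference.

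The neighbours of the members in the genome were described next. In the RefSeq gene order Ifitm5, Ifitm2, Ifitm1, Ifitm3 and Ifitm6 lie side by side among the protein-coding genes of chromosome 7, Ifitm10 lies elsewhere on that chromosome, and Ifi44 and Ifi44l are neighbours on chromosome 3. Of the 10 protein-coding neighbours of the Ifitm cluster, 5 on each side, 8 were tested, 2 passed as higher and 0 as lower. Ptdss2, a phosphatidylserine synthase 4 genes beyond B4galnt4, gave 9.06, 8.98 and 9.48 in the WT arrays and 11.06, 10.07 and 11.35 in the CBS-KO arrays (difference 1.65, SE 0.33, limma adjusted p = 0.0346). B4galnt4, a glycosyltransferase gene next to Ifitm6, rose by 0.64 (SE 0.14, adjusted p = 0.0377). Both calls were lost on leaving out any single array except CBS-KO 2 (adjusted p up to 0.144 for Ptdss2 and 0.155 for B4galnt4), and with no filter, and B4galnt4 was not called with the replicate block or with sex as a model term. The other neighbours tested ran from Sigirr, a negative regulator of interleukin 1 and Toll-like receptor signalling (-0.51, SE 0.23, adjusted p = 0.182), to the proteasome subunit gene Psmd13 (0.35, SE 0.15, adjusted p = 0.172).

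Around the other members 1 neighbour passed. Of 10 neighbours of Ifitm10, 6 were tested and none was called, with the largest positive difference in Ctsd, the lysosomal protease cathepsin D (0.23, SE 0.07, limma adjusted p = 0.0711). Of 10 neighbours of Ifi44 and Ifi44l, 5 were tested. Prkacb, a catalytic subunit of protein kinase A, was lower (-0.55, SE 0.12, limma adjusted p = 0.0384), a call lost on leaving out any single array except CBS-KO 2, with no filter and with the replicate block (adjusted p up to 0.155). Adgrl4, an adhesion receptor of endothelial cells and the gene next to Ifi44, gave 6.41, 6.16 and 6.88 in the WT arrays and 9.25, 7.26 and 9.29 in the CBS-KO arrays. Adgrl4 was below the filter level in every WT array and passed the filter through its CBS-KO level. All CBS-KO arrays were above all WT arrays, but the SD of the CBS-KO arrays, 1.16, was wide. The difference of 2.12 (SE 0.55) did not pass (limma adjusted p = 0.0570).

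**Figure D3:**
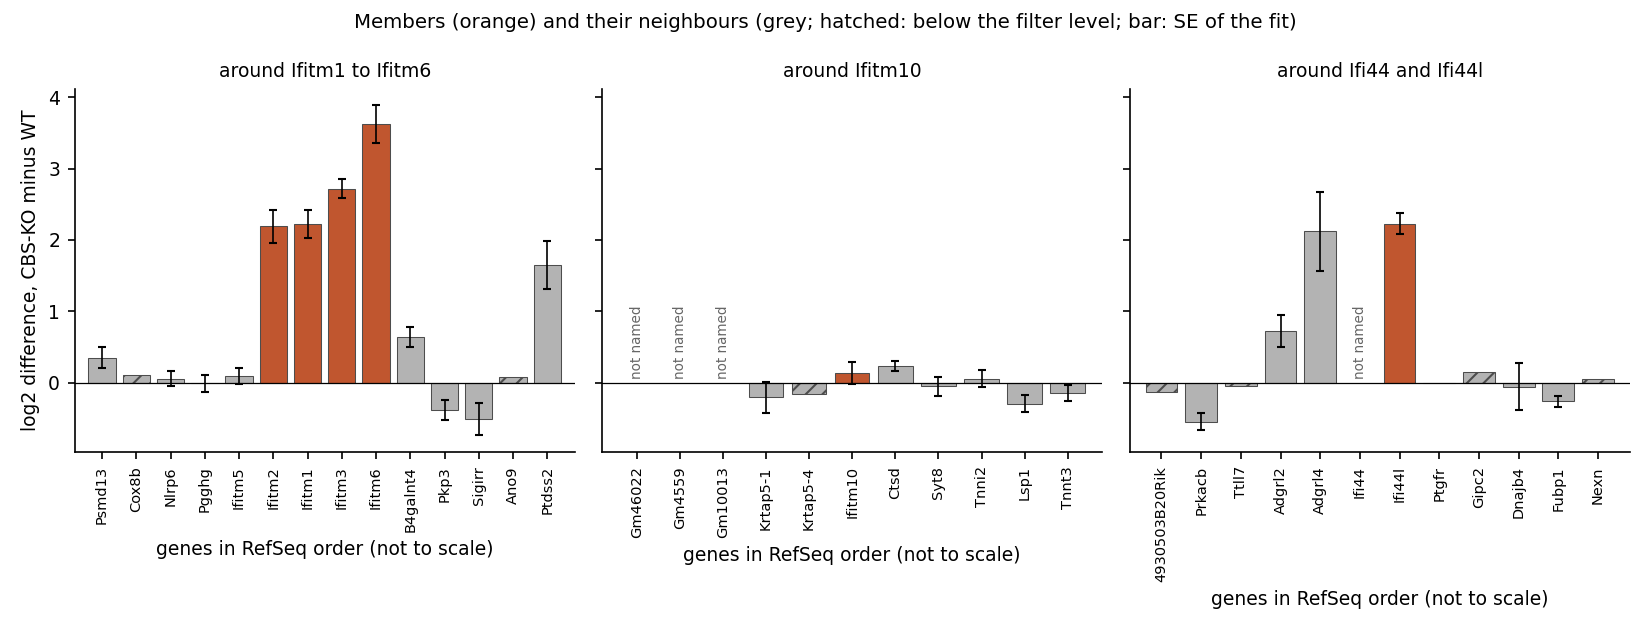
Log2 difference, CBS-KO minus WT, of the members (orange) and 5 protein-coding neighbours on each side (grey) in RefSeq gene order, which is not to scale; error bars are the SE of the limma fit, hatched bars lie below the filter level, "not named" marks genes that no probe set names alone, and each gene is drawn by its brightest probe set. The 4 cluster members Ifitm2, Ifitm1, Ifitm3 and Ifitm6 stand between 2.19 and 3.62, while Ifitm5 beside them stands at 0.09 and Ifitm10 at 0.14.

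In the interferon pathway more genes passed as lower than as higher. Of 93 pathway gene symbols listed (Ddx58 and Rigi name the same gene), 82 had a probe set and 70 were tested. Of these 70, 3 passed as higher and 16 as lower, with a median difference of -0.28. Over all tested probe sets 5.09% were called as higher and 4.47% as lower. A fall was not particular to this pathway, since the CD4 T cell genes had a median difference of -0.74. The part of T cell content in the pathway values was not tested. No ligand gene passed. Of 6 ligand genes tested, Ifng, the type II interferon, had the most negative difference (-0.50, SE 0.23, limma adjusted p = 0.199). The type I genes Ifna2, Ifna5, Ifna14 and Ifnab differed by -0.06, -0.26, 0.07 and -0.11, and the lambda interferon Ifnl2 by 0.09, with limma adjusted p from 0.501 to 0.823. The beta interferon gene Ifnb1 lay below the filter level, as did 8 other ligand genes. A p that misses the threshold does not show that these levels were alike.

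Among the receptors, 1 of 5 tested genes passed, and Ifnlr1, the other chain of the lambda receptor, lay below the filter level. Ifngr1, the ligand-binding chain for interferon gamma, gave 11.92, 11.87 and 12.04 in the WT arrays and 12.51, 12.52 and 12.32 in the CBS-KO arrays (difference 0.51, SE 0.09, limma adjusted p = 0.0259). Ifnar1, the type I receptor chain, differed by -0.52 (SE 0.15, adjusted p = 0.0765), Ifnar2 by 0.14 (SE 0.08, 0.273), Ifngr2 by -0.24 (SE 0.15, 0.345) and Il10rb, a chain of the lambda receptor, by -0.14 (SE 0.16, 0.603). The call of Ifngr1 was lost with the replicate block, with sex as a model term and without WT 1, WT 2, WT 3 or CBS-KO 1 (adjusted p up to 0.125).

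All 5 tested kinases and transcription factors of the first signalling step had negative differences, and 1 passed. Irf9, the DNA-binding part of the complex that binds the ISRE, was 11.40, 11.55 and 11.24 in the WT arrays and 10.69, 10.83 and 10.61 in the CBS-KO arrays (difference -0.68, SE 0.12, limma adjusted p = 0.0243). Stat2 differed by -0.46 (SE 0.16, adjusted p = 0.102), Jak1 by -0.41 (SE 0.11, 0.0657), Jak2 by -0.24 (SE 0.10, 0.151) and Tyk2 by -0.12 (SE 0.16, 0.662). Of 7 interferon regulatory factor genes tested beside Irf9, only Irf8, a factor of myeloid and B cell differentiation, passed, as higher (1.43, SE 0.29, adjusted p = 0.0341). Irf8 gave 9.21, 9.25 and 10.16 in the WT arrays and 11.10, 11.17 and 10.64 in the CBS-KO arrays. The median of these 7 was -0.17. The list also held 3 genes of Irf2-binding proteins, none of which passed, and the median of all 10 was -0.07. Of 9 inhibitors, Usp18, which strips ISG15 from proteins and shuts off the type I receptor, was the single gene that passed, as lower (-0.74, SE 0.14, adjusted p = 0.0301). Irf9, Irf8 and Usp18 were each not called without WT 1, WT 2 or CBS-KO 1 (adjusted p up to 0.121, 0.139 and 0.136). Irf8 was also not called with no filter, with the replicate block and with sex as a model term, nor Usp18 without WT 3.

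Of 35 tested effector genes induced by interferon, 14 passed as lower and 1 as higher, with a median difference of -0.50. Oasl2, an oligoadenylate synthetase-like antiviral gene, fell most, from 9.38, 9.85 and 9.36 in the WT arrays to 7.11, 7.50 and 7.11 in the CBS-KO arrays (-2.29, SE 0.19, limma adjusted p = 0.00417). Ifit1, which binds viral RNA lacking a methylated cap, was at 9.54, 9.87 and 9.74 for WT and at 8.35, 8.39 and 8.17 for CBS-KO (-1.41, SE 0.14, adjusted p = 0.00738). These arrays are those in which Ifitm1, Ifitm2, Ifitm3, Ifitm6 and Ifi44l were high. Ifit3 fell by 1.07 (SE 0.12, limma adjusted p = 0.00882), Ifi27l2a by 1.42 (SE 0.19, 0.0132) and the chaperone gene Rtp4 by 1.28 (SE 0.18, 0.0152). Isg20, an exonuclease, was the 1 effector that passed as higher (1.01, SE 0.14, adjusted p = 0.0153), and it is named because it was the exception, after its value was seen. Leaving out 1 array, the number that passed as lower was 2 for WT 1, 1 for WT 2, 7 for WT 3, 3 for CBS-KO 1, 19 for CBS-KO 2 and 11 for CBS-KO 3. Oasl2 was called in all 16 alternatives, Ifit1 in all but the fit without WT 2, Ifi27l2a in 14, and Ifit3, Rtp4 and Isg20 in 13 (not without WT 1, WT 2 or CBS-KO 1). The comparison of the members with this list was not tested, because the members were chosen from the contrast.

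**Figure D4:**
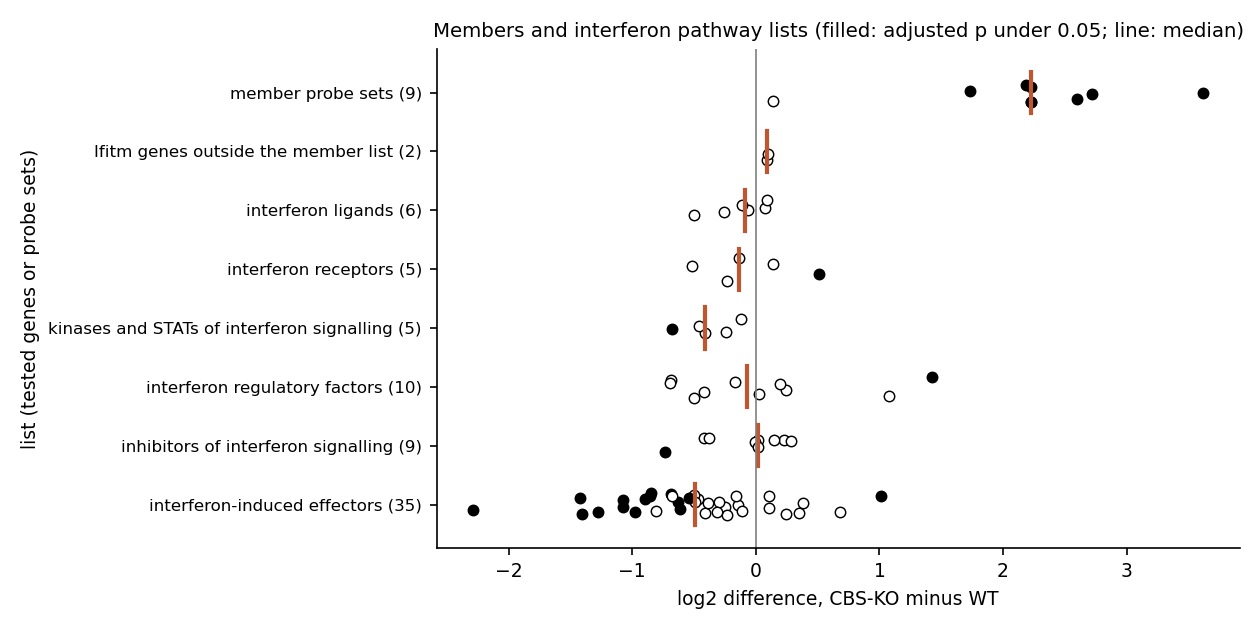
Log2 difference, CBS-KO minus WT, of the 9 member probe sets and of each tested gene in 7 lists of the Ifitm family and the interferon pathway; filled points have a limma adjusted p under 0.05 and orange lines are medians. The members' median is 2.22 and that of the 35 effectors is -0.50.

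Genes whose pattern over the 6 arrays was most like a member were found by Pearson's r among the 13862 tested probe sets that name 1 gene. The arrays form 2 groups, so a high r mainly reflects a like step between them, and no p is given. Lcn2, an iron-scavenging protein of neutrophil granules, was most like Ifitm3 (r = 0.999, difference 5.33), ahead of the glycogen phosphorylase gene Pygl (0.998) and the peroxisomal transporter gene Abcd2 (0.998). Most like Ifitm6 were Tbc1d8 (r above 0.999, difference 1.78), Rab7b (0.999), a small GTPase of lysosomal traffic, and Gpr141 (0.999). Ldlrad3 (r = 0.998), the chitinase-like gene Chil1 (0.995, difference 3.29) and the early response gene Ier3 (0.995) were most like Ifi44l.

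For the members with several probe sets the nearest genes differed between probe sets. Arfgap3, a regulator of Golgi transport, was among the 3 nearest to both Ifitm1 probe sets (r = 0.994 and 0.993). Beside it stood Dram1 (0.992) and Trim16 (0.990) for probe set 10558769, and Gdpd3 (0.994) and Efhd2 (0.993) for 10570434. No gene was shared between the 3 Ifitm2 probe sets. Nearest were Mafg, Rab31 and Ppp1r11 (r = 0.997, 0.997 and 0.996) to 10383756, Tns3, Atp6v0a1 and the small nucleolar RNA gene Snora73b (0.999, 0.998 and 0.997) to 10553299, and Bid, Thbs1 and D17H6S56E-5 (0.997, 0.996 and 0.995) to 10569014. Ifitm10 was most like P3h3 (0.985), Cyp2d40 (0.982) and Myo3b (0.980), none of which passed the threshold.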

How the data were processed

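Total RNA of CD4+ T cells was hybridised to 6 Affymetrix arrays after biotin labelling, per the labels' protocols. The authors deposited linear intensity values, 1 for each probe set on each array. Their software, normalization and summary steps were not given in the sources used here. Array medians ran from 7.37 to 7.55 as log2(intensity + 16). Of 34760 probe sets, 21640 named 1 gene in the platform table, 1321 several and 11799 none. Probe sets with a mean above the 40th percentile (20856) were fitted with limma 3.58.1 (eBayes with a trend, R 4.3.3), and p was adjusted over all of them by Benjamini and Hochberg. A list gene is its brightest tested probe set. RefSeq (GRCm38.p6) gave gene order and start regions. The members, lists, motifs and alternatives were chosen with earlier results of these data known. Named genes are the members, up to 5 called genes of smallest p per pathway list and all tested genes of lists with at most 6 tested, 5 neighbours on each side (of which those called or extreme are printed), and the 3 probe sets most correlated with each member. The model was tested on simulated data. Precision is limited by having 3 arrays in each group. Each p-value sets the group difference against the spread within the groups, and the CBS-KO arrays were of both sexes. Figures used matplotlib 3.10.9.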

Additional observations from a re-analysis of the deposited data

How the results depend on the processing

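Alternatives were offsets of 1 and 64, no filter or the 60th percentile, quantile normalization, a common array median, 2 other variance models, the replicate block, sex as a model term, and each array left out. The 8 called member probe sets kept their direction in all of them, with differences from 1.49 (Ifitm2 probe set 10553299 without WT 2) to 3.89 (Ifitm6 without WT 3). Of 143 member values under alternatives, 2 moved beyond 1 SD: Ifitm10 with sex as a model term (-0.16) and Ifi44l with an offset of 64 (1.81). Ifitm6 also had a smaller difference with an offset of 64, 3.22 in place of 3.62, which counted as within 1 SD. With single arrays left out, 5 to 8 member probe sets were called, the 5 without WT 1; 73 to 6427 probe sets were called in all, 54 to 3396 higher and 19 to 3031 lower; of the 70 pathway genes 1 to 37 were called, 0 to 6 higher and 1 to 31 lower. With no filter 1126 probe sets were called, 602 higher and 524 lower. With sex as a model term 4976 were called, 2309 higher and 2667 lower, and 29 pathway genes, 27 of them lower. The cause of these shifts was not tested. The fit with no filter covered 34760 probe sets in place of 20856.

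Same-numbered arrays deviated together with correlations of 0.06, 0.16 and 0.11 over probe sets, too weak to treat the numbers as pairs, although each array correlated best with its own number. With the replicate block, 2093 probe sets and 8 of 9 member probe sets were called, and 1 pathway gene was higher in place of 3.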
